A study of Mus musculus with 6 samples.

Results

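Keratin-associated proteins of the hair shaft are encoded by genes whose symbols start with Krtap, and every such row of the deposited expression table was taken, 52 of 23412 genes. They fall into 25 subfamilies, named by the number before the hyphen, and lie in 4 clusters, on chromosomes 7, 10, 11 and 16. RNA came from ventral dermis of 6 mice of 3 weeks on a mixed CD1 and C57BL/6 background. The 3 mutants were HoxB6CreERT/+; R26-YFP/+; CatnbΔex3/+. The first allele drives a Cre that tamoxifen switches on from Hoxb6 sequences, the second is a yellow fluorescent reporter, and the last is a beta-catenin gene that gives a stable protein once Cre removes exon 3. The 3 littermate controls were HoxB6CreERT/+; R26-YFP/+, so both groups carried Cre and reporter. All received tamoxifen through the mother on embryonic day 16.5. The series' title names dermal fibroblasts as the cells with active beta-catenin, and recombination reaches only cells that expressed the Hoxb6 driver while tamoxifen was present. The comparison asks how dermis with active beta-catenin in fibroblasts differs from control dermis.

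The hair shaft is built by epithelial cells of the follicle, which leave the proliferating matrix of the bulb, make hair keratins and then fill the space between keratin filaments with keratin-associated proteins. These small proteins are cross-linked to the filaments by disulfide bonds. They are grouped by composition into high glycine-tyrosine, high sulfur and ultra-high sulfur proteins. In skin they mark the cortex and cuticle of a growing shaft, and fibroblasts are not known as their source. Follicles sit in the dermis, and dermis from which the epidermis was peeled can still hold them.

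Reads assigned to genes, recovered from FPKM as the smallest counts that fit, numbered from 7799565 to 13478910 per library. The 52 Krtap genes had 76791, 115731 and 115343 reads in controls. They had 117663, 37676 and 113723 in mutants. FPKM (fragments per kilobase of gene, scaled to library depth by the authors) is used as the level throughout, and values are listed in the order of mice 1, 2 and 3 of a group. Differences were tested with limma on log2(FPKM + 1) for genes averaging 1 FPKM or more, which 49 of the 52 passed, with a threshold of 0.05 on the adjusted p. The log2 scale with an added 1 understates differences of low genes. Xist, expressed from an inactive X chromosome, stood at 55.5 FPKM in control 1 and 66.2 in control 2, which had at most 0.0136 FPKM of the Y-linked Ddx3y. Control 3 and all mutants had 13.2 to 19.1 FPKM of Ddx3y, so sex partly coincides with genotype and cannot be told apart from it in full. Mutant 2 stood apart with 6.47 FPKM of Xist beside Ddx3y, where control 3 and the other mutants had at most 0.184. Whether that library holds RNA of a single mouse was not tested.

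Krtap RNA was lower on average in the mutant dermis, and 1 mutant library made most of that difference. Summed over the 52 genes, FPKM came to 6594, 10785 and 11359 in controls. In mutants it came to 8909, 2536 and 7868. Mutant 2 lay far below all other libraries, at 26.5% of the control mean, while mutants 1 and 3 lay between control 1 and the other controls. All 49 tested genes had a negative log2 difference, from -1.21 to -0.12 with a median of -0.64, where the median of all tested genes was 0.09. None of the 49 passed the test in either direction (limma with Benjamini-Hochberg adjustment, adjusted p from 0.292 to 0.908), and over all 12560 tested genes 0.143% were called higher and 0% lower. Without mutant 2 the median of the 49 was -0.11, with 44 below 0 and 5 above, against 0.17 for all tested genes. Leaving out control 1, the lowest control, moved the median the other way, to -0.88 with all 49 below 0, against 0.12 for all tested genes. Members share their libraries and move together, so the count of negative values is not 49 separate observations. Rn45s, the ribosomal RNA precursor, ran the other way, with 5147, 2555 and 3804 FPKM in controls and 2320, 7702 and 2685 in mutants, so it was highest in mutant 2 and next in control 1. Its part in the result was not tested. In dermis of this kind, fewer hair-forming cells and less Krtap RNA per cell cannot be told apart.

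**Figure D1:**
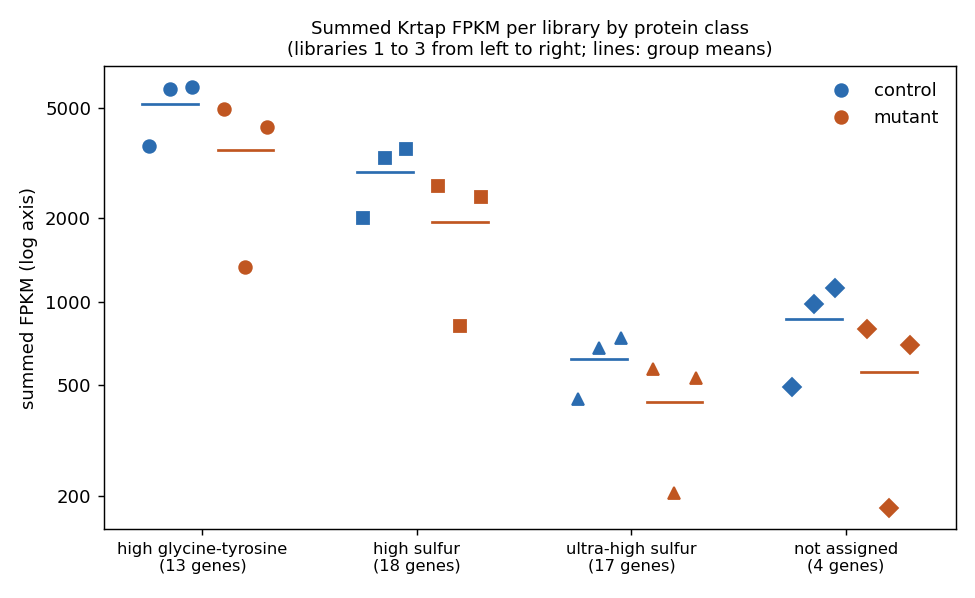
Summed FPKM (log axis) of the Krtap genes of each protein class in the 6 libraries, with blue symbols for controls 1 to 3, orange symbols for mutants 1 to 3 and lines for group means. In every class mutant 2 is the lowest library, and the sum over all classes in that library is 2536 FPKM.

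At an unadjusted p under 0.05, 3 of the 49 were lower (6.12%), Krtap4-2, Krtap4-7 and Krtap3-2, where 0.748% of all tested genes were. Both shares depend on scaling. With libraries scaled to their middle gene (median-of-ratios), 9 of the 49 were lower at that level, against 6.49% of all tested genes. In 2 of the 49, Krtap4-7 and Krtap9-1, all mutants lay below all controls (4.08%), as they did in 2.65% of all tested genes. None of these Krtap shares rests on independent genes, since the Krtap genes of a library are high or low together.

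The high glycine-tyrosine proteins, subfamilies 6, 7, 8, 19, 20, 21 and 22, gave more than any other class to the total. Their 13 genes, all on chromosome 16, held 52.4% to 55.3% of summed Krtap FPKM in each library. Their median log2 difference was -0.70 over 12 tested genes. Krtap8-1 (chr16:89487379-89487952, minus strand), a single-exon gene with the highest mean of all members, had 860, 1326 and 1375 FPKM in controls, against 1184, 362 and 969 in mutants. The groups overlapped, with mutant 1 above control 1 and mutant 2 alone below the control range. Its means were 1187 ± 284 FPKM in controls and 838 ± 426 in mutants (SD, n = 3 each). The log2 difference was -0.64, with a 95% interval of -1.73 to 0.46 and an adjusted p of 0.728. Krtap7-1 (chr16:89507703-89508323) followed the same order, with 687, 1017 and 1032 FPKM in controls and 843, 251 and 768 in mutants (log2 difference -0.72, adjusted p = 0.675).

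Subfamily 19, with 5 members side by side on chromosome 16, had the lowest values of this class in mutant 2, with a median of 16.2% of the control mean. Krtap19-1 (chr16:88868917-88869411) had the largest negative difference of all members. It stood at 71.2, 176 and 200 FPKM in controls, against 110, 18.2 and 96.3 in mutants. Control 1 lay below mutants 1 and 3, so the groups overlapped. The log2 difference was -1.21 (SE 0.63, 95% bounds -2.64 and 0.21, adjusted p = 0.538), and without mutant 2 it was -0.40. Krtap19-5 and Krtap19-4 had differences of -1.03 and -0.93, and Krtap19-3 of -0.79, with adjusted p from 0.588 to 0.70. Subfamilies 6, 21 and 22 varied less. Krtap6-5, the most abundant of 3 subfamily 6 members, had 293, 390 and 360 FPKM in controls and 311, 97.9 and 279 in mutants. Krtap21-1 had a difference of -0.55 and Krtap22-2 of -0.58, and both were at -0.02 without mutant 2.

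The high sulfur proteins were next in amount, with 29.3% to 32.1% of summed Krtap FPKM over 18 genes. Their median log2 difference was -0.61 over 17 tested genes, and -0.09 without mutant 2. Krtap15 (chr16:88820215-88829844), the most abundant, had 557, 1051 and 1074 FPKM in controls, against 766, 214 and 726 in mutants. Krtap14 (chr16:88818667-88826145) overlaps it on the other strand. Krtap14 stood at 155, 341 and 361 FPKM in controls and 220, 56.8 and 192 in mutants, a difference of -0.99 (SE 0.52, adjusted p = 0.538). The libraries were stranded, but the strand setting of the count is not given, so reads of this pair may not be fully separated.

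On chromosome 11, Krtap1-5 (chr11:99579976-99581016) of the hair cortex was the most abundant member, with 324, 527 and 512 FPKM in controls and 395, 112 and 347 in mutants (log2 difference -0.83, adjusted p = 0.581). Its relatives Krtap1-4 and Krtap1-3 were among the least variable, and mutant 2 held 56.7% and 52.2% of the control mean there against 24.6% for Krtap1-5. Krtap2-4 had a difference of -0.83 and Krtap3-1 of -0.76. Krtap3-2 had 59.5, 102 and 88.8 FPKM in controls and 64.7, 22.3 and 58.5 in mutants. Mutants 1 and 3 lay near control 1 and below the other controls, and the difference of -0.87 (SE 0.38, adjusted p = 0.429) became -0.40 without mutant 2.

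The remaining high sulfur genes were close to the class median. On chromosome 16, Krtap11-1 had a difference of -0.55, Krtap13-1 of -0.60, Krtap24-1 of -0.48, Krtap26-1 of -0.52 and Krtap27-1 of -0.51. Without mutant 2 these lay between -0.09 and 0.07. On chromosome 10, Krtap12-1 and Krtap10-10 both had -0.61 to -0.62, with adjusted p of 0.733 and 0.598. These 2 genes and Krtap10-4 lie within the span of another gene, Tspear.

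Ultra-high sulfur proteins, rich in cysteine and found mainly in cuticle and cortex, had 17 genes but only 6.29% to 8.06% of summed Krtap FPKM. Subfamilies 4 and 9 lie on chromosome 11 with Krtap17-1, and subfamily 5 on chromosome 7. Krtap9-3 (chr11:99597347-99598105) led the class, with 121, 238 and 226 FPKM in controls and 181, 51.4 and 160 in mutants (log2 difference -0.70, adjusted p = 0.668). Krtap4-1, the most abundant of subfamily 4, had a difference of -0.79 (adjusted p = 0.462). Krtap4-2 (chr11:99634111-99635084) had the lowest adjusted p of all members. It stood at 27.6, 49.6 and 51.5 FPKM in controls and 24.8, 13.1 and 29.8 in mutants, a difference of -0.92 (SE 0.32, 95% bounds -1.64 and -0.20, adjusted p = 0.292). Here mutants 1 and 3 lay near control 1 and far below controls 2 and 3, and without mutant 2 the difference was -0.59. Krtap4-7 had 36.8, 44.2 and 49.5 FPKM in controls and 34.1, 14.8 and 34.7 in mutants, so the groups did not overlap, but control 1 and mutant 3 were close.

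Krtap17-1 (chr11:99993234-99993994), a cuticle gene, was the member in which mutant 1 exceeded all controls by most. It stood at 80.1, 84.4 and 105 FPKM in controls, against 120, 38.2 and 98.4 in mutants. The difference was -0.21 (SE 0.38, adjusted p = 0.907) with all libraries and 0.28 without mutant 2. In subfamily 5, Krtap5-5, its most abundant member, had 12.9, 20.2 and 24.05 FPKM in controls and 18.0, 5.06 and 16.7 in mutants.

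**Figure D2:**
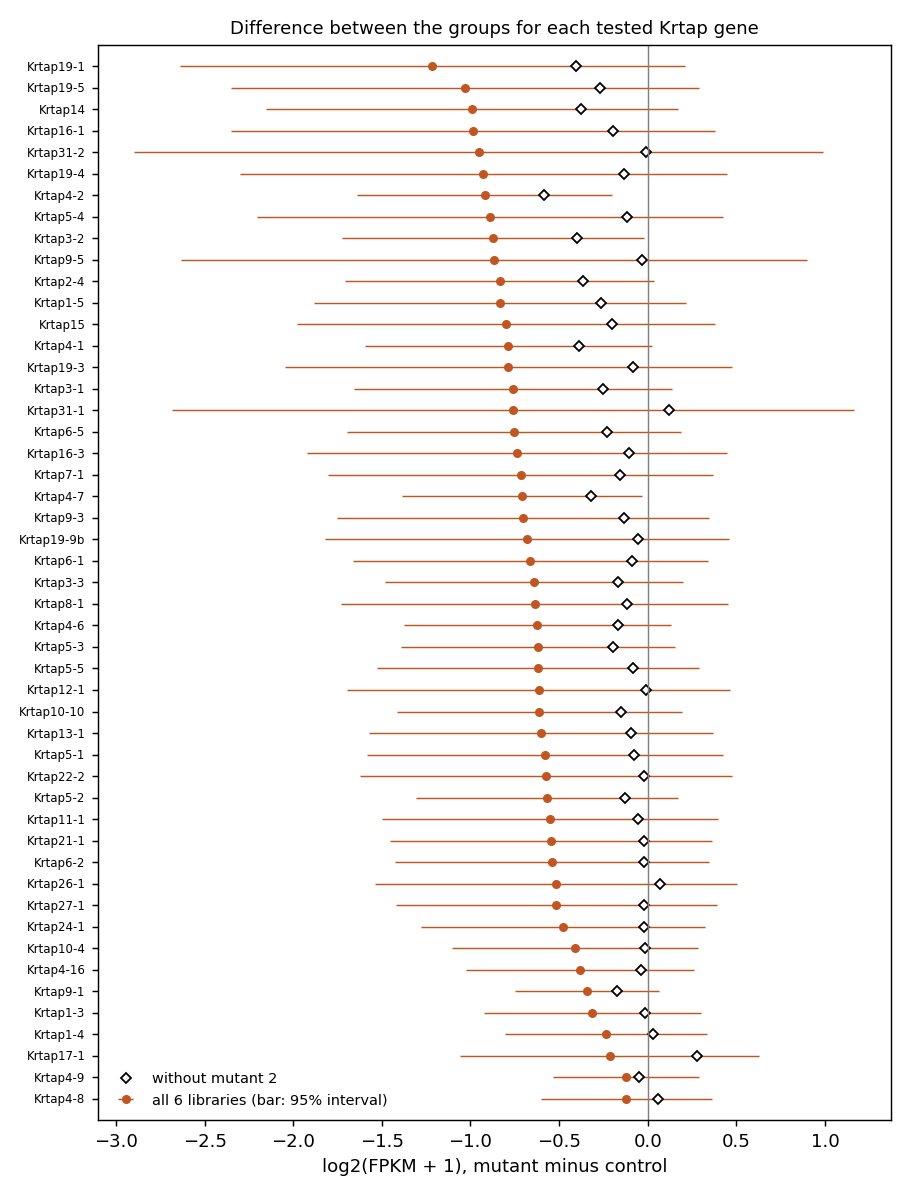
Difference between the mutant and control means on the log2(FPKM + 1) scale for the 49 tested genes, with 95% intervals from limma (orange) and the value without mutant 2 (open diamonds). All orange points lie between -1.21 and -0.12, and the diamonds lie between -0.59 and 0.28.

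The order of the libraries was nearly the same in all classes. Mutant 2 was the lowest library in 48 of 49 tested genes, all but Krtap4-9, and it was the lowest in 35.2% of all tested genes. In 40 of the 49 it was below 50% of the next lowest library, as in 0.916% of all tested genes. Median-of-ratios scaling, which sets libraries to the middle gene, left 48 and 34 genes in these counts, with 23.9% and 0.637% of all tested genes. Among controls, control 1 was the lowest in 45 of 49, the exceptions being Krtap4-8, Krtap4-9, Krtap4-16 and Krtap9-1. Control 1 was the lowest control in 13.1% of all tested genes, and in 46 members and 29.5% of all after that scaling. Mutants 1 and 3 both lay below controls 2 and 3 in 36 of the 49, and in 5.52% of all tested genes. After that scaling they did so in 45 of the 49, and in 24.4% of all.

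Member by member, mutant 2 ranged from 6.03% to 79.5% of the control mean, with a median of 28.3%. The same library had a median of 94.1% over all tested genes. Control 1 had a median of 70.7% of the control mean over the 49, control 2 of 108% and control 3 of 120%. Mutant 1 had a median of 93.0% and mutant 3 of 83.7%. Mutants 1 and 3 both lay within the control range in 41 of the 49, as in 17.9% of all tested genes. After scaling this held in 34 members and 26.5% of all.

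**Figure D3:**
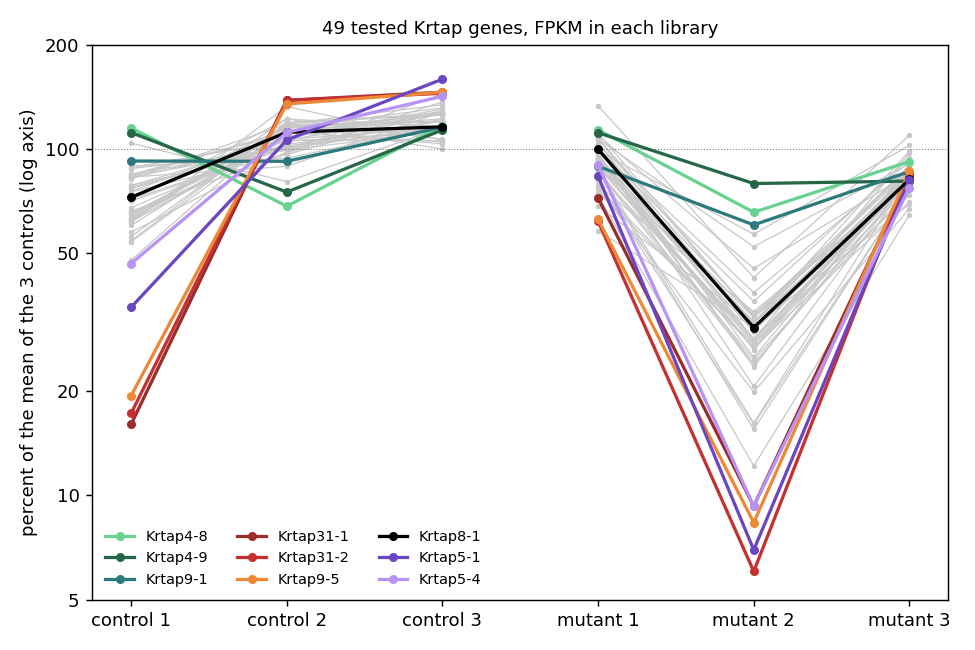
FPKM of each of the 49 tested genes in each library as a percent of the mean of the 3 controls (log axis), with 9 genes in colour or black and the others in grey. Krtap31-1, Krtap31-2, Krtap9-5, Krtap5-1 and Krtap5-4 are the lowest in mutant 2 and are also low in control 1, while Krtap4-8, Krtap4-9 and Krtap9-1 stay nearest to 100% in mutant 2.

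Not all members varied to the same degree. The ratio of the highest to the lowest library had a median of 4.24 over the 49 genes and ran from 1.51 for Krtap4-9 to 23.99 for Krtap31-2. Of the 4 widest ranges, 3 were in adjacent members on chromosome 11, picked after their values were seen, and the other was in Krtap5-1 on chromosome 7 (22.8). Krtap31-1 (chr11:99907920-99908892, plus strand) stood at 4.23, 36.5 and 38.5 FPKM in controls, against 19.1, 2.46 and 22.1 in mutants. Krtap31-2 (chr11:99936291-99937225, plus strand) stood at 3.58, 28.7 and 30.1 FPKM in controls and at 12.8, 1.25 and 17.6 in mutants. Krtap9-5 (chr11:99948475-99949551, plus strand), of an ultra-high sulfur subfamily, stood at 3.44, 23.9 and 25.8 FPKM in controls and at 11.1, 1.48 and 15.3 in mutants.

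Control 1 and mutant 2 were low together in these genes, controls 2 and 3 were the highest, and mutants 1 and 3 lay between. Control 1 held 11.3%, 12.2% and 13.8% of the mean of controls 2 and 3, where the median over the 49 members was 61.7%. Their reads ran from 25 for Krtap31-2 in mutant 2 to 562 for Krtap31-1 in control 2. Both groups spread widely, and log2 differences of -0.76, -0.95 and -0.87 had standard errors of 0.86, 0.86 and 0.79. Without mutant 2 the differences were 0.12, -0.01 and -0.03. Krtap31-1 and Krtap31-2 share sequence, with 39.5% and 41.5% of their 50-base windows also present in another gene's transcripts, so their reads may be partly exchanged. Krtap9-5 shared none.

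A gene lying between them, Gm11565 (chr11:99914751-99915671), showed the same order: 11.7, 77.0 and 86.7 FPKM in controls and 42.4, 4.02 and 48.4 in mutants. To show what these neighbours have in common, the 100 bases before the start of each are given from RefSeq's promoter table (GRCm38.p6, plus strand). Capitals mark a run of 23 bases and the TATAAA that follows it.
Krtap31-1 (chr11:99907820-99907919): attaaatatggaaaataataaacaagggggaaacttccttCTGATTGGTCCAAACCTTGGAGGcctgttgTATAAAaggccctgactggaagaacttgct
Gm11565 (chr11:99914651-99914750): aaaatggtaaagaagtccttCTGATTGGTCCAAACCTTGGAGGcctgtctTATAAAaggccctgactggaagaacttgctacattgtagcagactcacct
Krtap31-2 (chr11:99936191-99936290): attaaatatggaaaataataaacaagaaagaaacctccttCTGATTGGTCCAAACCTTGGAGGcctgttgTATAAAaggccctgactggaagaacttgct
Krtap9-5 (chr11:99948324-99948423): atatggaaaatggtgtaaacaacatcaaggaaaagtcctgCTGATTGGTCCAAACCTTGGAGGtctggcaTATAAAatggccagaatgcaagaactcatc

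The run CTGATTGGTCCAAACCTTGGAGG is the longest shared by the promoter windows of the 3 Krtap genes. Searched on both strands, it occurred in 4 of 32851 promoter windows of 300 bases, those 4. In each it ended 7 bases before the TATAAA. The wide range was not particular to these 4 genes. 2310061N02Rik, a gene inside the chromosome 16 cluster, had 2.22, 13.5 and 13.1 FPKM in controls. In mutants it had 4.45, 0.532 and 3.98, and it was not among the 4 genes with the run. The run was looked for after the values had been seen, near copies of a gene share promoter sequence too, and a match is not a binding site.

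**Figure D4:**
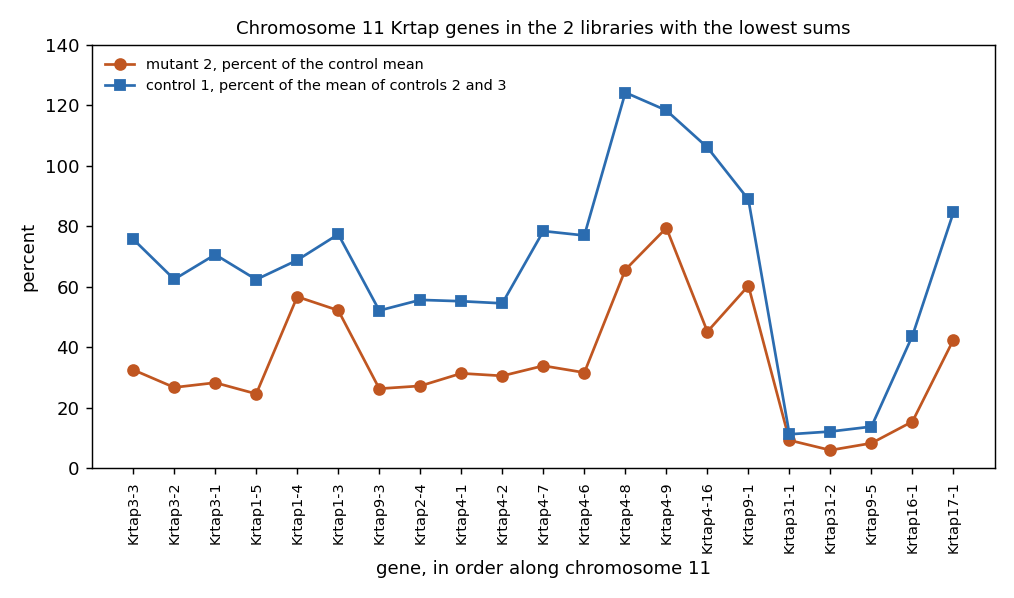
Tested Krtap genes in their order along chromosome 11, with mutant 2 as a percent of the control mean (orange circles) and control 1 as a percent of the mean of controls 2 and 3 (blue squares). The blue series is highest over Krtap4-8, Krtap4-9, Krtap4-16 and Krtap9-1, and is between 11.3% and 13.8% in Krtap31-1, Krtap31-2 and Krtap9-5. The orange series is highest in Krtap4-9, Krtap4-8 and Krtap9-1, while Krtap4-16 (45.2%) lies below Krtap1-4 (56.7%) and Krtap1-3 (52.2%).

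The least variable members lay just before these on the same chromosome, and were also picked after their values were seen. Krtap4-9 (chr11:99785200-99786258, plus strand) stood at 9.38, 6.32 and 9.55 FPKM in controls and 9.37, 6.69 and 6.80 in mutants, a difference of -0.12 (SE 0.18, 95% bounds -0.53 and 0.29). Krtap4-8 also had a difference of -0.12, from 41 to 84 reads per library, and 33.4% of its 50-base windows occur in other genes. Krtap9-1 (chr11:99873389-99874432) had 19.2, 19.2 and 24.1 FPKM in controls and 18.5, 12.6 and 17.9 in mutants. It is of the same subfamily as Krtap9-5, which ranged over 17.5-fold where Krtap9-1 ranged over 1.92-fold.

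On chromosome 7 the neighbours Krtap5-1 (chr7:142296334-142297118) and Krtap5-4 (chr7:142303549-142304594) were the other tested members below 10% of the control mean in mutant 2. Krtap5-4 had 4.92, 11.8 and 14.96 FPKM in controls and 9.49, 0.982 and 8.16 in mutants, from 21 reads in mutant 2. Krtap5-1, the lowest member that passed the filter, had 1.02, 3.09 and 4.63 FPKM in controls and 2.43, 0.203 and 2.37 in mutants, from 3 reads in mutant 2. It shares 60.6% of its windows with other genes, so its values are uncertain. Krtap16-1 (chr11:99984710-99986597), next to Krtap9-5 among members, stood at 126, 267 and 306 FPKM in controls and 200, 36.1 and 180 in mutants, a difference of -0.98 (adjusted p = 0.633). Krtap16-3, which shares its number but lies on chromosome 16, had a difference of -0.73. Neither subfamily 16 nor 31 was put in a protein class.

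The 3 members under the filter were close to silent. Krtap4-13, the nearest below it, had 1, 2 and 5 reads in controls and 6, 12 and 4 in mutants, and 81.3% of its windows occur in other genes. Krtap20-2 had 5, 1 and 1 reads in controls and 1, 0 and 2 in mutants. Krtap13 had 1, 0 and 0 reads in controls and 0, 1 and 1 in mutants. With no filter on FPKM, Krtap13 and Krtap4-13 were the only members above 0 in log2 difference.

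Most members shared a promoter feature that the selection did not use. Promoter windows were found for 47 of the 52, and TATAAA began 40 to 20 bases before the start, on the gene's strand, in 28 of the 47 (59.6%). The same held for 1.99% of all 32851 windows, and for 4 of 9 hair shaft keratin windows (44.4%). Anywhere in the window and on either strand, TATAAA occurred in 83.0% of member windows and 13.6% of all. CTTTGA and CTTTGT, letters within the site known for Lef1 and its relatives, occurred in 29.8% and 27.7% of member windows and in 16.003% and 18.7% of all. GACGC, known from the site of the hair regulator Foxn1, occurred in 6.38% and 27.2%. Near copies of a gene share promoter sequence, so the member shares do not rest on independent windows. Whether Lef1, its relatives or Foxn1 bind these promoters was not tested. The flat member Krtap4-9 and the abundant Krtap8-1 are shown to set beside the steep genes, with TATAAA in capitals, 37 and 29 bases before the start.
Krtap4-9 (chr11:99785100-99785199, plus strand): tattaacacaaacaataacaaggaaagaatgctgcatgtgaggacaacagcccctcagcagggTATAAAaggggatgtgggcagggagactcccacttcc
Krtap8-1 (chr16:89487953-89488052, minus strand): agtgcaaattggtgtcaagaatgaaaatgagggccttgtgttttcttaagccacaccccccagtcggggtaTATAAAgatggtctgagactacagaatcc

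Genes inside the 4 clusters that lack a Krtap symbol followed the members. Whether they encode keratin-associated proteins under provisional names was not examined. Of 21 tested neighbours without a Krtap symbol, mutant 2 was the lowest library in 19, as in 35.2% of all tested genes. All 21 had negative differences with a median of -0.57. None passed the test, and 2 had an unadjusted p under 0.05, where 0.748% of all tested genes were lower at that level. Several neighbours share sequence with members, so reads may be partly exchanged and their agreement is not independent. Gm4559, Gm2696, Gm11562 and Gm10229 are the genes sharing most 50-base windows with Krtap5-1, Krtap10-10, Krtap2-4 and Krtap6-1.

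Genes of the hair shaft outside the family were also lowest in mutant 2, in 15 of 15 hair shaft keratins and 8 of 8 other shaft proteins. All 15 hair shaft keratins, which form the filaments that the Krtap proteins surround, had negative log2 differences (median -0.59), none passed the test and 1 had an unadjusted p under 0.05. Their summed FPKM was 2233, 3186 and 3829 in controls, against 2976, 1072 and 2609 in mutants. Mutant 2 held 34.8% of the control mean, against 26.5% for Krtap genes. Krtap FPKM per hair keratin FPKM was 2.95, 3.38 and 2.97 in controls and 2.99, 2.37 and 3.02 in mutants. Mutant 2 had the lowest ratio and control 2 the highest, and the other libraries lay close together. Krt33a, an abundant cortex keratin, was at 33.2% of the control mean in mutant 2, while Krt35, which appears early in the forming shaft, had 244, 241 and 321 FPKM in controls and 306, 160 and 256.4 in mutants. Krt84 was the lowest keratin of the list, at 9.18% in mutant 2.

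As sums, regulators and sheath genes were nearer to the control level in mutant 2 and did not set control 1 apart. Some of these genes did, and control 1 was the lowest control in Foxn1, Foxq1 and Prdm1, and in the sheath keratins Krt28, Krt72 and Krt74. It held 76.9%, 79.0% and 83.3% of the mean of controls 2 and 3 in Foxn1, Foxq1 and Prdm1. Mutant 2 was at 46.9%, 47.0% and 59.4% of the control mean in those 3 regulators. The 10 regulators of hair matrix and cortex had a median log2 difference of -0.33, all 10 negative, 0 called and 2 at an unadjusted p under 0.05, and their sum in mutant 2 was 62.7% of the control mean. Hoxc13, a homeobox gene required for hair keratin expression, stood at 27.9, 24.7 and 27.6 FPKM in controls and 21.5, 16.8 and 24.1 in mutants. Dlx3, Msx2 and Gata3 had differences of -0.33, -0.33 and -0.30. The 8 inner root sheath keratins had a median of -0.30 (8 negative, 0 called, 1 at an unadjusted p under 0.05), with controls at 99.1% to 101% of their mean and mutant 2 at 56.6%. Their most abundant member, Krt71, had 1627, 1623 and 1567 FPKM in controls and 1823, 896 and 1526 in mutants. The 8 other shaft proteins had a median of -0.34 with 0 called, and S100a3 of the cuticle had a difference of -0.14 while Tchh, a filament-binding protein of sheath and medulla, had -0.62.

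**Figure D5:**
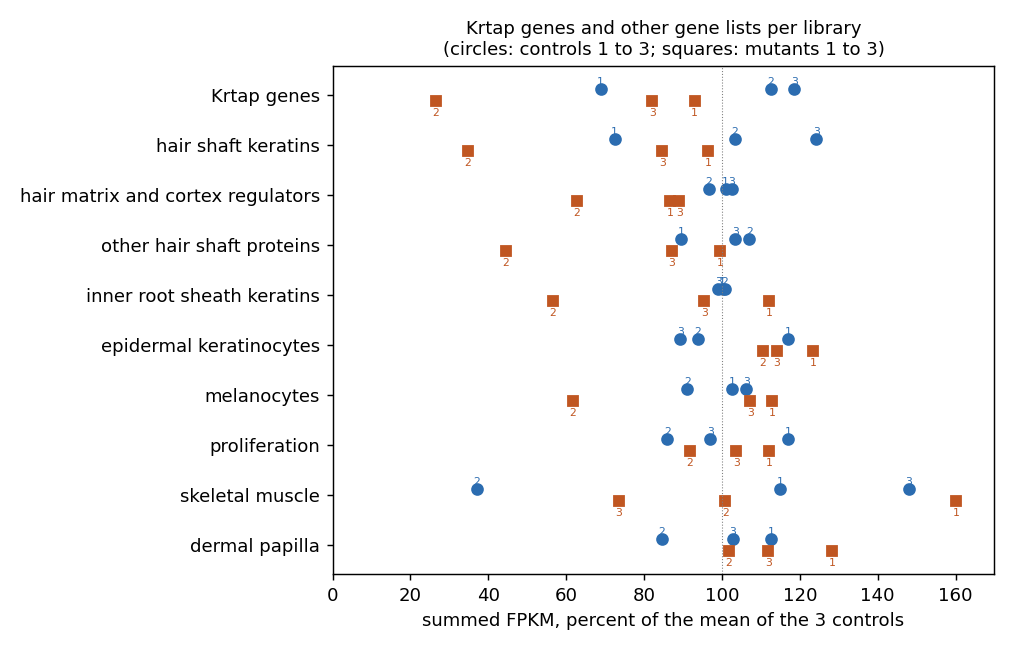
Summed FPKM of Krtap genes and 9 other gene lists in each library, as a percent of the mean of the 3 controls, with circles for controls 1 to 3 and squares for mutants 1 to 3. Mutant 2 is at 26.5% for Krtap genes, 34.8% for hair shaft keratins and 56.6% for inner root sheath keratins, and between 91.8% and 111% for proliferation, muscle, dermal papilla and epidermal lists.

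Summed by list, markers of other cells did not share the order with mutant 2 lowest and control 1 the lowest control. Some of their genes did, among them Corin of the papilla list, Mlana and Slc45a2 of the melanocyte list and Ivl of the epidermal list. Mutant 2 was at 36.9% of the control mean in Corin, 59.1% in Mlana and 60.7% in Slc45a2. Melanocyte genes, which mark pigment cells of the bulb, were also lowest in mutant 2, at 61.8% of the control mean, but control 1 was at 103%. The 10 proliferation genes were at 91.8% in mutant 2 and 117% in control 1, and Mki67 and Top2a had differences of -0.04 and 0.04. The dermal papilla sum was at 102% in mutant 2, though 4 of 9 tested genes were lowest there, while Alpl was highest at 233% of the control mean. Skeletal muscle genes were at 101% in mutant 2, with control 2 at 37.0%. The epidermal list was at 111% in mutant 2 and 117% in control 1. Within it, in genes picked after their values were seen, the suprabasal Krt1, Krt10, Krt77 and Lor were all highest in mutant 2. Other differentiation genes of the list were lowest there, with Ivl at 48.2%, Dsc1 at 62.2% and Dsg1a at 75.0% of the control mean. Krt10 had 62.6, 37.6 and 23.6 FPKM in controls and 41.1, 86.4 and 54.3 in mutants, with control 1 the highest control. No gene of these 5 lists passed the test. At an unadjusted p under 0.05, 2 epidermal genes were higher and 1 papilla gene lay in each direction, where 10.5% of all tested genes were higher and 0.748% lower. The part of these cell types in the Krtap values was not tested.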

How the data were processed

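The authors deposited 1 table of FPKM values per gene. Per the submitters' processing notes, GSNAP, HTSeq and build mm10 were used. No version, strand setting or rule for reads that match several genes was stated, which matters because 36 of 52 members share a window of 50 bases with another gene's transcripts. Locations are from GENCODE M21, which has 58 Krtap symbols, and 6 of these were not analysed here.

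Values were compared as log2(FPKM + 1) with limma 3.58.1 (R 4.3.3), two-sided, with an intensity trend and Benjamini-Hochberg adjustment over 12560 genes. The fit was tested on simulated data with independent genes, which cannot tell how it does for members that move together. A permutation test of 3 mice against 3 cannot go below p = 0.1. Reads were recovered from whole-number steps of FPKM in 23412 of 23412 genes (tolerance 3e-08, 1820 at 0 throughout). They are the smallest whole numbers that fit, so a factor common to all counts of a gene would be missed. Members and lists were chosen with earlier results of these data known. Named genes were the most abundant of each subfamily, the 8 lowest differences, up to 4 abundant genes per list and the genes beside the filter. Others were described after their values were seen. Protein classes follow the textbook grouping by subfamily, since protein sequences were not used here.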

Additional observations from a re-analysis of the deposited data

How the results depend on the processing

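The count of Krtap genes past the threshold was 0 in both directions under all 15 alternatives: another pseudocount, 2 filters, 2 scalings, the prior without trend, library sex, the replicate block, limma-voom on recovered reads, and each library left out. The fit on reads took median-of-ratios factors in place of the planned TMM factors, a change made after seeing the data. It gave 13 of 49 members an unadjusted p under 0.05, against 6.84% of all genes lower. The lowest adjusted p of any member ran from 0.137 with quantile normalization to 0.748 without control 2. The median log2 difference of the tested members stayed negative. With a library left out it ran from -0.93 without mutant 1 to -0.11 without mutant 2, and was -0.88 without control 1. Otherwise it ran from -0.98 to -0.63. The value of -0.98 is with library sex as a covariate, which compares the mutants with control 3 alone. The mutant sum was 67.2% of the control sum, 54.3% to 87.6% with a library left out (87.6% without mutant 2) and 59.0% after median-of-ratios scaling, 2 checks added after seeing the data. After that scaling the Krtap sums were 6465, 12188 and 11430 FPKM in controls, and 7526, 2728 and 7507 in mutants. The sign turned without mutant 2 in Krtap17-1 (-0.53 to 0.28 over libraries left out), Krtap26-1 (-0.84 to 0.070) and Krtap31-1 (-1.72 to 0.12), and also in Krtap1-4 (0.031) and Krtap4-8 (0.057).

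Same-numbered libraries did not deviate together (correlations 0.0016, 0.037 and -0.082). With 3 libraries per group these values cannot settle whether equal numbers mark mice handled together. With the replicate block the median was -0.64, 0 members were called and 67 genes in all were higher against 18 without it. Reads limit the low members most: Krtap5-1 rests on 3 to 48 per library.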
